A study of Mus musculus with 6 samples.

Results

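Nitric oxide synthesis and signalling were followed through 7 genes, *Nos1*, *Nos1ap*, *Nos3*, *Gucy1a1*, *Gucy1b1*, *Prkg1* and *Prkg2*, taken by symbol from the 32285 mouse genes of the count tables, in which each symbol occurred once. The cells came from whole ganglia of pups of both sexes at postnatal day 5 (P5), all of which carried a Cre driver and a *Rosa* reporter allele (*RosatdT*) from which Cre recombinase switches on the red fluorescent protein tdTomato. No other genotype, treatment or age was compared, and cells were not sorted. How many pups went into a library is not given in the sources used here. The libraries covered the stellate ganglion and the lumbar chain (paravertebral sympathetic ganglia), the coeliac ganglion (prevertebral sympathetic), the parasympathetic sphenopalatine ganglion and, in 2 libraries named pelvic_1 and pelvic_2, the pelvic ganglion. Pelvic_1, stellate and sphenopalatine formed round 1 of the experiment, made with version 2 droplet reagents, and pelvic_2, coeliac and lumbar formed round 2, made with version 3. The question of the series is how neurons of the pelvic ganglion compare with sympathetic and parasympathetic ones.

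Nitric oxide is a diffusible messenger made from arginine by nitric oxide synthases, with tetrahydrobiopterin as a cofactor. In its target cells it binds soluble guanylyl cyclase, a dimer of an alpha and a beta subunit, which then makes cyclic GMP, and cyclic GMP activates the cyclic GMP-dependent protein kinases and is broken down by phosphodiesterases. In the autonomic nervous system, nitric oxide is known as a transmitter of neurons that relax vessels and the smooth muscle of organs, often together with acetylcholine and the peptide Vip, and in the vessel wall it passes from endothelium to smooth muscle. *Nos1* encodes the neuronal synthase, *Nos1ap* an adaptor that binds it, *Nos3* the endothelial synthase, *Gucy1a1* and *Gucy1b1* the alpha-1 and beta-1 subunits of the cyclase, and *Prkg1* and *Prkg2* the type I and type II kinases.

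From 1427 to 7219 cells per library were retained, 21442 in all, and 7059 of them were neurons (2725 stellate, 1905 sphenopalatine, 930 lumbar, 894 in pelvic_1, 368 in pelvic_2 and 237 coeliac). Deposited totals ranged from 39353313 to 113352559 unique molecular identifiers (UMIs, tags that count captured RNA molecules) per library. The median UMI count of neurons lay between 26658 in the stellate and 108546 in pelvic_2, that of mural-like cells between 3748.5 and 11833. Levels are UMIs of a gene summed over all cells of a group in a library, as counts-per-million values (CPM) of all UMIs of that group, so that deep cells weigh more than shallow ones. The reads tag transcript ends, and levels are compared between groups and not between genes. Intervals are exact Poisson (CPM) or Wilson (shares) at 95% and cover counting error only. Any pair of libraries shared at most 49 cell barcodes, 1.06% of the smaller library. Classes were drawn or named by the markers that follow, so these sums describe the classes and do not test them. In each library neuronal markers summed to at least 11006 CPM in neurons and glial markers to at least 8602 CPM in glia. Mural markers summed to at least 13440 CPM in mural-like cells and endothelial markers to at least 5963 CPM in endothelial-like cells. Endothelial-like cells also held mural markers at 567 to 1556 CPM in all, and glia held neuronal markers at 391 to 2446 CPM and fibroblast markers at 2556 to 7369 CPM.

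*Nos1* (ENSMUSG00000029361, GRCm38 chr5:117781032-117958840, plus strand) separated parasympathetic and pelvic neurons from sympathetic ones. Its level was 1174 CPM in sphenopalatine neurons, 968 CPM in pelvic_1 and 939 CPM in pelvic_2. In sympathetic neurons it was 1.80 CPM in the stellate (interval 1.52 to 2.12), 2.06 CPM in the coeliac (1.45 to 2.84) and 2.80 CPM in the lumbar chain (2.43 to 3.22). The 3 sympathetic libraries lay far below the other 3 with no overlap, and among themselves the coeliac interval overlapped both others. A *Nos1* UMI was found in 98.7% of sphenopalatine neurons, 88.6% of pelvic_1 and 90.2% of pelvic_2 neurons, against 4.62%, 10.97% and 11.3% of stellate, coeliac and lumbar neurons. After each neuron was thinned to 4000 UMIs these shares were 89.1%, 74.5% and 76.7%, against 0.740%, 0.862% and 1.80%, for which 1 to 41 neurons per library were too shallow.

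In pelvic neurons *Nos1* was 538-fold above the stellate within round 1, and 456-fold above the coeliac and 335-fold above the lumbar chain within round 2. Fitted over the 2 pelvic and 3 sympathetic libraries with the round as a term, the difference was 8.76 ± 0.22 on the log2 scale. Its adjusted p was 2.28e-05 (edgeR's quasi-likelihood test, Benjamini-Hochberg adjustment over 15695 genes). In all edgeR fits ± is an approximate standard error, the absolute log2 difference divided by the square root of the test's F statistic. Few residual degrees of freedom were left in this fit, and fewer when a library was left out. Of all genes tested in this comparison, 18.5% passed the threshold of 0.05, 10.3% higher and 8.21% lower in pelvic neurons, and of the 7 genes described here 4 were higher and 1 lower. The parasympathetic ganglion had 1 library, so sphenopalatine neurons entered no fitted comparison between ganglia. Nothing in the sources states that the pelvic libraries came from separate animals, so these p-values measure the spread between libraries.

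**Figure D1:**
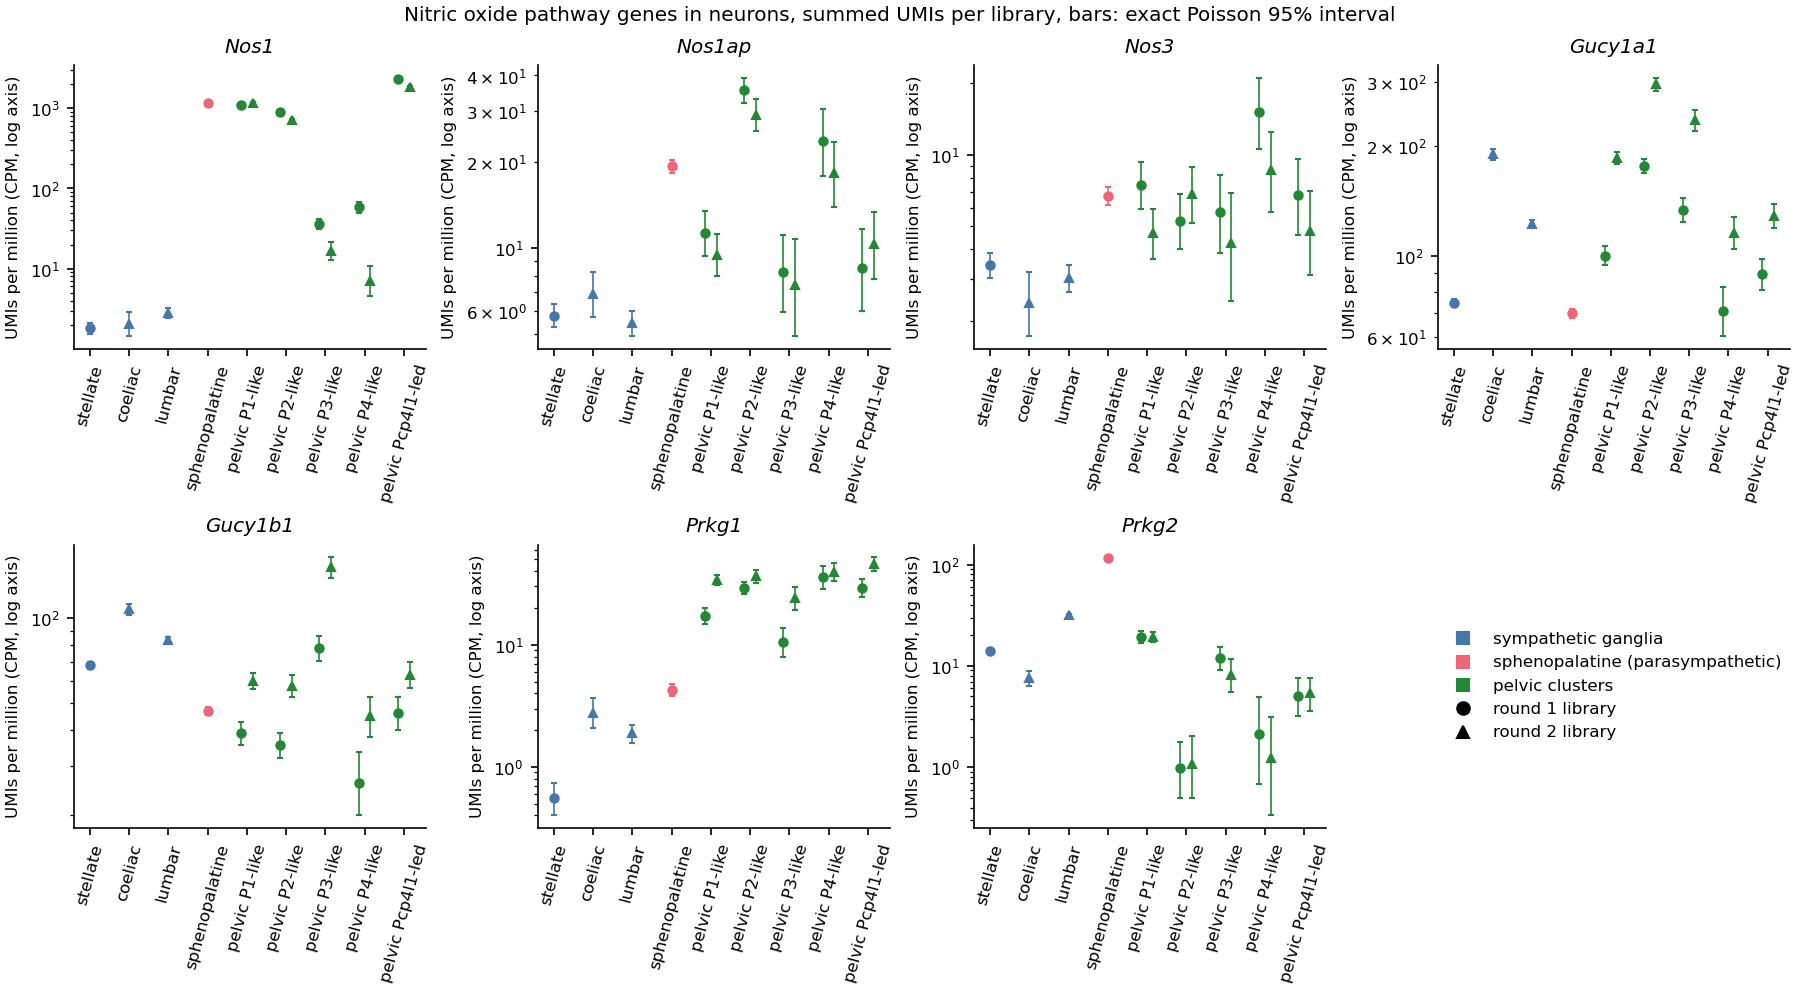
Level of the 7 genes in neurons (vertical axes, CPM on log axes) by ganglion and, for the pelvic ganglion, by cluster and library (horizontal axes), with exact Poisson 95% intervals as bars, circles for round 1 and triangles for round 2. *Nos1* in the sphenopalatine and in 3 of the 5 pelvic clusters drawn lies between 711 and 2337 CPM, and between 1.80 and 58.1 CPM in the sympathetic ganglia and the P3-like and P4-like pelvic clusters.

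Within the pelvic ganglion *Nos1* was not uniform. Clustering of its 1262 neurons gave 6 clusters, of which 4 held at least 3 markers of a pelvic cluster described by the study and took its name (P1-like, P2-like, P3-like or P4-like). *Nos1* reached 1110 and 1178 CPM (pelvic_1, then pelvic_2) in the P1-like cluster, led by *Cartpt* and *Vip*, and 894 and 711 CPM in the P2-like cluster, led by *Grp*. The highest level was in an unnamed cluster of 145 neurons led by *Pcp4l1*, *Thy1* and *Gng8*, at 2337 and 1838 CPM. An unnamed cluster of 87 neurons led by glial genes held 991 and 836 CPM. In each library the *Pcp4l1*-led cluster stood above the others without overlap of intervals.

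The P3-like and P4-like clusters stood apart. P3-like neurons (131 and 33 cells), which are noradrenergic with *Th*, the rate-limiting enzyme of catecholamine synthesis, at 502 and 515 CPM, held *Nos1* at 36.2 and 16.7 CPM. P4-like neurons (58 and 31 cells) were led by the peptide gene *Calca* and the retinoic acid enzyme gene *Aldh1a2*. They held *Chat*, which makes acetylcholine, at 78.0 and 67.3 CPM, and *Nos1* at 58.1 and 7.10 CPM. Macrophage-like cells, which should lack the gene, held 31.6 CPM (interval 21.4 to 44.8) in pelvic_1 and 14.3 CPM (7.81 to 24.0) in pelvic_2, which overlaps both P3-like intervals (31.3 to 41.8 and 12.8 to 21.4) and the P4-like interval of pelvic_2 (4.50 to 10.7). The neurons were the deeper cells, with medians of 39534 and 115153 UMIs in P3-like and 108598 UMIs in P4-like neurons of pelvic_2, against 7277 and 16368 UMIs in macrophage-like cells. P3-like neurons held 189 *Nos1* UMIs in 131 cells and 63 in 33, and macrophage-like cells 31 in 123 and 14 in 55. The part of free RNA in these levels was not tested. In the P4-like cluster of pelvic_1 (48.9 to 68.7) 3 cells held 71.0% of the *Nos1* UMIs. The study calls its P4 cluster cholinergic. The cholinergic list was *Chat*, *Slc18a3*, *Slc5a7*, *Vip* and *Gfra2*, and the noradrenergic list *Th*, *Dbh*, *Slc18a2*, *Slc6a2* and *Npy*, so each holds a peptide gene. The listed cholinergic markers summed to 1237 and 1405 CPM in P4-like, 1181 and 1638 CPM in P2-like and 4262 and 5980 CPM in P1-like neurons. In P3-like neurons they summed to 68.6 and 35.5 CPM. The listed noradrenergic markers summed to 3061 and 3132 CPM in P4-like, 2810 and 3910 CPM in P2-like and 1454 and 1486 CPM in P1-like neurons. In P3-like neurons they summed to 9709 and 8512 CPM. *Vip* alone gave 1343 and 2677 CPM of the cholinergic sums of all pelvic neurons, 2193 and 3678 CPM. The sums are therefore compared between clusters and not with each other. Under the rule for naming clusters, 5 noradrenergic markers stood out in P3-like neurons and 0 in P1-like, P2-like and P4-like neurons. Of the cholinergic markers 1 did in P1-like neurons and 0 in P2-like, P3-like and P4-like neurons.

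Counted by cell, 93.3% and 93.2% of P1-like neurons reached 200 CPM of *Nos1* (pelvic_1, then pelvic_2), and so did 94.5% and 97.8% of P2-like neurons and 104 of 105 and 40 of 40 *Pcp4l1*-led neurons. Among P3-like neurons 6 of 131 and 0 of 33 did, and among P4-like neurons 3 of 58 and 0 of 31. The median neuron held 1009 and 1122 CPM in P1-like, 964 and 768 CPM in P2-like, 2301 and 1879 CPM in *Pcp4l1*-led, 0 and 5.94 CPM in P3-like and 16.9 and 0 CPM in P4-like clusters. P4-like neurons also carried glial markers at 447 and 399 CPM in all, against 19.8 to 249 CPM in the P1-like, P2-like, P3-like and *Pcp4l1*-led clusters, and the part of these cells in the result was not tested. The *Nos1*-rich cluster led by glial genes held 747 and 755 CPM of them.

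**Figure D2:**
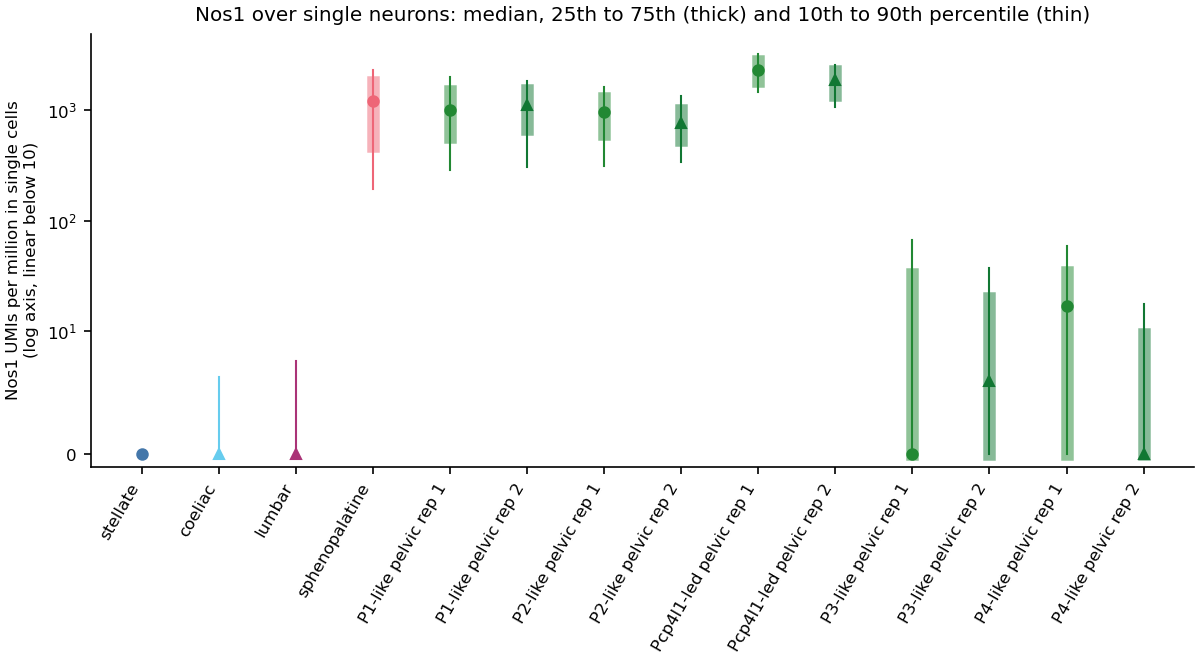
*Nos1* in single neurons (vertical axis, CPM of the cell, log axis that is linear below 10) for each ganglion and pelvic cluster (horizontal axis), as the median (point), the 25th to 75th percentile (thick bar) and the 10th to 90th percentile (thin line). The sphenopalatine, P1-like, P2-like and *Pcp4l1*-led medians lie between 768 and 2301, and the P3-like, P4-like and sympathetic medians between 0 and 16.9.

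Co-detection with transmitter genes followed the clusters. At 4000 UMIs per cell, 2.41% of *Nos1*-positive pelvic_1 neurons and 0.741% of those of pelvic_2 also had a *Th* UMI, against 12.7% and 8.81% of all pelvic neurons. *Vip*, the relaxing peptide often found with nitric oxide, was detected in 65.0% and 79.6% of the *Nos1*-positive neurons, against 55.5% and 68.5% of all pelvic neurons. In the sphenopalatine *Nos1* and *Vip* were both detected in 88.3% of neurons at this depth. *Chat*, a weakly detected gene, was found in 18.8% and 16.7% of *Nos1*-positive pelvic neurons, against 17.5% and 17.6% of all.

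All 11 sphenopalatine clusters held *Nos1*, over a range from 187 to 1958 CPM. The highest levels were 1958 CPM in 398 neurons led by *Edil3*, 1872 CPM in 125 led by *Pcp4l1* and 1726 CPM in 172 led by *Tac2*. The lowest were 187 CPM in a cluster of 79 neurons and 445 CPM in 210 neurons led by *Penk*, a precursor of opioid peptides. Even the lowest cluster was above the 52.4 CPM of macrophage-like cells in that library, and 89.9% of its neurons had a *Nos1* UMI. The clusters were drawn from the same cells and from 1 library, so their differences are a description.

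In sympathetic ganglia the highest cluster levels of *Nos1* were 10.4 CPM in the coeliac and 10.5 CPM in the lumbar cluster led by *Sytl4*, where 18.9% and 13.9% of neurons had a *Nos1* UMI, and the *Sytl4*-led stellate cluster held 2.07 CPM. The cholinergic-like sympathetic clusters held 2.43 CPM (28 stellate neurons led by *Adgrg6*), 2.69 CPM (26 stellate neurons led by *Vip*) and 3.11 CPM (43 lumbar neurons led by *Vip*). The other sympathetic clusters held 0 to 4.05 CPM, so these 3 did not stand out among them.

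Outside neurons, *Nos1* counts went with the level of the library's neurons. Glia held 124 CPM in the sphenopalatine, 55.3 CPM in pelvic_1 and 26.2 CPM in pelvic_2, but 0.799, 0.0966 and 0.309 CPM in the stellate, coeliac and lumbar libraries, the last values resting on 9, 1 and 3 UMIs. Macrophage-like cells held 52.4, 31.6 and 14.3 CPM in the first 3 libraries and 0.781, 0 and 0 CPM in the others, where 0 UMIs allow up to 7.59 CPM in the coeliac and 5.56 CPM in the lumbar library. Endothelial-like, mural-like and fibroblast-like cells had the same split, at 6.89 to 48.3 CPM in the parasympathetic and pelvic and at 0 to 4.71 CPM in the sympathetic libraries. In the sphenopalatine and both pelvic libraries glia were the highest of these classes. The part of free RNA in these values was not tested. In the fit over classes neurons exceeded glia by 4.05 ± 0.38 on the log2 scale (adjusted p = 9.35e-11, edgeR), in 6 of 6 libraries, and the difference from neurons was -5.71 ± 0.48 in endothelial-like cells (adjusted p = 4.73e-12). Chromaffin-like cells, the catecholamine-secreting relatives of sympathetic neurons, reached 106 CPM in pelvic_2 (59 cells), 26.0 CPM in pelvic_1 (156 cells) and 1.35 CPM in the coeliac (46 cells). The value was above macrophage-like cells in pelvic_2 and below them in pelvic_1. These cells, named from 3 of 5 listed markers, also held neuronal markers at 2697 to 4411 CPM in all. The part of neuronal RNA in their level was not tested.

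*Nos1ap* (ENSMUSG00000038473, GRCm38 chr1:170302668-170589861, minus strand) encodes the adaptor that links neuronal nitric oxide synthase to other proteins. In neurons it was at 20.1 CPM in pelvic_1, 15.0 CPM in pelvic_2 and 19.3 CPM in the sphenopalatine, and at 5.79 CPM in the stellate, 6.90 CPM in the coeliac and 5.47 CPM in the lumbar library. The sympathetic libraries again lay below the others without overlap. Pelvic neurons exceeded sympathetic ones by 1.51 ± 0.17 on the log2 scale (adjusted p = 0.00158, edgeR). The cluster order differed from that of *Nos1*, with P2-like neurons highest at 35.5 and 29.2 CPM and P4-like neurons, low in *Nos1*, at 23.6 and 18.2 CPM. P1-like neurons held 11.3 and 9.48 CPM, the *Pcp4l1*-led cluster 8.49 and 10.3 CPM and P3-like neurons 8.24 and 7.42 CPM. Sphenopalatine clusters reached up to 31.9 CPM, in the *Penk*-led one.

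Beyond neurons, *Nos1ap* lay at 7.92 to 18.4 CPM in endothelial-like cells, 3.46 to 7.62 CPM in glia and 0 to 7.06 CPM in mural-like cells. In the fit over 6 classes and 6 libraries, neurons exceeded glia by 1.27 ± 0.22 (adjusted p = 8.20e-06, edgeR), although the lumbar library had slightly less in neurons than in glia. Mural-like cells were lower than endothelial-like cells by a log2 difference of -1.95 ± 0.37 (adjusted p = 9.69e-05), in 6 of 6 libraries, and lower than neurons (-1.90 ± 0.36, adjusted p = 3.00e-05), in 5 of 6. In pelvic_1, an endothelial-like cluster of 52 cells led by *Cldn5* held 54.0 CPM, and the *Gpihbp1*-led cluster of 168 cells 7.23 CPM. In the sphenopalatine the same leading genes went with 19.9 and 17.8 CPM, which overlapped in their intervals.

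*Nos3* (ENSMUSG00000028978, GRCm38 chr5:24364810-24384474, plus strand), the endothelial synthase, was highest in endothelium in every library. Endothelial-like cells held 32.7 CPM in the stellate, 34.9 CPM in the sphenopalatine, 56.3 CPM in pelvic_1, 63.4 CPM in the coeliac, 72.7 CPM in pelvic_2 and 75.2 CPM in the lumbar library. Neurons held 2.39 to 6.80 CPM and glia 2.59 to 4.01 CPM. Mural-like cells had 0 UMIs in 4 libraries, 1 UMI in pelvic_1 and 2 UMIs in the lumbar library. Macrophage-like cells had 0 UMIs in pelvic_1, the stellate and the sphenopalatine, which allow up to 3.05, 2.34 and 3.35 CPM, below neurons and glia of those libraries. In pelvic_2, the coeliac and the lumbar library they had 1, 2 and 0 UMIs, too few to place them above or below.

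Endothelial-like cells exceeded neurons in *Nos3* by 3.42 ± 0.30 on the log2 scale (adjusted p = 1.77e-11, edgeR), 5.21-fold to 26.5-fold in the 6 libraries. Against mural-like cells the fitted difference was -6.14 ± 0.60 (mural minus endothelial, adjusted p = 1.30e-09), a value that depends on the prior count because of the zeros, as does the mural minus neuron difference of -2.72 ± 0.76 (adjusted p = 0.00227). Mural-like cells were below neurons in 5 libraries and above them in the lumbar one, at 9.02 against 3.02 CPM. In the coeliac a single UMI in mural-like cells would be 2.87 CPM, above the 2.39 CPM of neurons. The mural minus neuron difference lost the threshold under 1 of 14 alternatives. The 3 libraries of round 2 were all above the 3 of round 1 in endothelial-like cells. In pelvic_1 the *Cldn5*-led endothelial-like cluster held 101 CPM and the *Gpihbp1*-led one 42.1 CPM, and in the sphenopalatine the same leading genes went with 67.3 and 25.2 CPM. *Nos3* overlaps *Atg9b* on the opposite strand, and whether the counting used strand is not given in the sources used here.

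Pelvic and sphenopalatine neurons held more *Nos3* than sympathetic ones, at 6.80, 5.63 and 6.69 CPM against 2.39, 3.02 and 3.44 CPM. The pelvic minus sympathetic difference was 1.00 ± 0.20 (adjusted p = 0.0145, edgeR), and it did not pass the threshold when the stellate or either pelvic library was left out, nor without the round term (adjusted p up to 0.180). Fits of this comparison with a library left out had few residual degrees of freedom, so a threshold lost in them is a weak guide. The highest cluster values were 15.2 CPM in P4-like neurons of pelvic_1, 9.67 CPM in the cluster of pelvic_2 led by glial genes and 8.65 CPM in P4-like neurons of pelvic_2. Neurons and glia did not differ by the test, with a difference of 0.62 ± 0.30 (adjusted p = 0.0598), and neurons were higher in 3 libraries and lower in 3. The difference passed under 5 of 16 alternatives, among them leaving out the coeliac (0.69, adjusted p = 0.0369) or the lumbar library (0.67, adjusted p = 0.0400).

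*Gucy1a1* (ENSMUSG00000033910, GRCm38 chr3:82092427-82145789) and *Gucy1b1* (ENSMUSG00000028005, chr3:82032006-82074689) lie side by side on the minus strand, 17737 bases apart, and encode the subunits that form the nitric oxide receptor together. Since their levels followed each other across cell classes, the windows at their starts are shown, from 250 bases before to 50 after each start, as given by RefSeq for GRCm38.p6. *Gucy1a1* has a pair of starts in that table, at chr3:82145601-82145900 and chr3:82145024-82145323, and *Gucy1b1* one, at chr3:82074662-82074961, all on the minus strand. Capitals mark GGGCGG, the core of Sp1 sites, and CCAAT, here as its reverse complement.
Gucy1a1, upstream start: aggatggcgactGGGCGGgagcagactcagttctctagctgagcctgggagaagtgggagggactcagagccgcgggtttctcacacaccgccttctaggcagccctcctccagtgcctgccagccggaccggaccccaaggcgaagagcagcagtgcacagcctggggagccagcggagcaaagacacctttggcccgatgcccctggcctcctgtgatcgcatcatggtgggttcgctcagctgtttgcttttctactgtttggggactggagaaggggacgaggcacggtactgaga
Gucy1a1, downstream start: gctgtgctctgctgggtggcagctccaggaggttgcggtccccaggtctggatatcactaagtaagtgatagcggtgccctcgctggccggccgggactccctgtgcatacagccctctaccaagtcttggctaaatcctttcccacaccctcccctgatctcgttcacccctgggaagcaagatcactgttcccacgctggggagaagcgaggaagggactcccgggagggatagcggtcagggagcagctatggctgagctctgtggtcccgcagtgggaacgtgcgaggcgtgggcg
Gucy1b1: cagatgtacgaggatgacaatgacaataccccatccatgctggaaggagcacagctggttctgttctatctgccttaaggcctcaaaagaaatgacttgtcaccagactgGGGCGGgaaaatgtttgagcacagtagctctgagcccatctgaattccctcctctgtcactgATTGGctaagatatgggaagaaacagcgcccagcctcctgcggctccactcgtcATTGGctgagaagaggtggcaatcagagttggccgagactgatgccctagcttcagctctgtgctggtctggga
The upstream *Gucy1a1* window holds the GGGCGG motif once, the downstream window holds no motif searched, and the *Gucy1b1* window holds GGGCGG once and the CCAAT motif at 2 places. The letters TATAAA and the CArG box, the site of serum response factor in smooth muscle genes, were found in none of the 3, with both strands searched. Among 32851 such windows of mouse genes 37.4% hold the CCAAT motif. The GGGCGG motif is in 35.7% of them, the TATAAA motif in 13.6% and a CArG box in 1.63%.

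Mural-like cells, named by markers of the smooth muscle cells and pericytes of vessel walls, held the most *Gucy1a1*. Whether all of them came from vessel walls was not tested. Its level was 210 CPM in pelvic_1, 278 CPM in the stellate and 368 CPM in the sphenopalatine in round 1, and 657 CPM in pelvic_2, 857 CPM in the lumbar and 970 CPM in the coeliac library in round 2. Every round 2 library was above every round 1 library. *Gucy1b1* lay at 169, 287 and 226 CPM in pelvic_1, stellate and sphenopalatine, and at 281, 253 and 367 CPM in pelvic_2, lumbar and coeliac, and its rounds overlapped. Endothelial-like cells held 26.3 to 89.6 CPM of *Gucy1a1* and 10.3 to 35.6 CPM of *Gucy1b1*, and macrophage-like cells at most 9.16 and 5.58 CPM.

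Against endothelial-like cells, mural-like cells were higher by 3.27 ± 0.31 in *Gucy1a1* (adjusted p = 7.13e-10, edgeR) and by 3.39 ± 0.30 in *Gucy1b1* (adjusted p = 1.88e-10), in 6 of 6 libraries each. The fold per library ran from 3.52 in pelvic_1 to 14.4 in the coeliac for *Gucy1a1*. Against neurons they were higher by 1.89 ± 0.29 (adjusted p = 1.04e-06) and 1.77 ± 0.27 (adjusted p = 1.03e-06), again in all 6 libraries. The margin over neurons was smallest in pelvic_1, at 1.60-fold for *Gucy1a1*. Endothelial-like cells held less than neurons in all 6 libraries, with differences of -1.38 ± 0.29 for *Gucy1a1* (adjusted p = 7.79e-05) and -1.61 ± 0.28 for *Gucy1b1* (adjusted p = 6.34e-06). Among mural-like clusters of pelvic_2, the one led by the pericyte gene *Rgs5* held 896 CPM of *Gucy1a1* and the one led by the smooth muscle actin gene *Acta2* 426 CPM. In pelvic_1 and the sphenopalatine clusters with these leading genes held 237 against 187 CPM and 410 against 303 CPM, and their intervals overlapped. A further pelvic_1 cluster, 26 cells led by the smooth muscle actin gene *Actg2*, held 364 CPM, above the *Rgs5*-led cluster there.

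**Figure D3:**
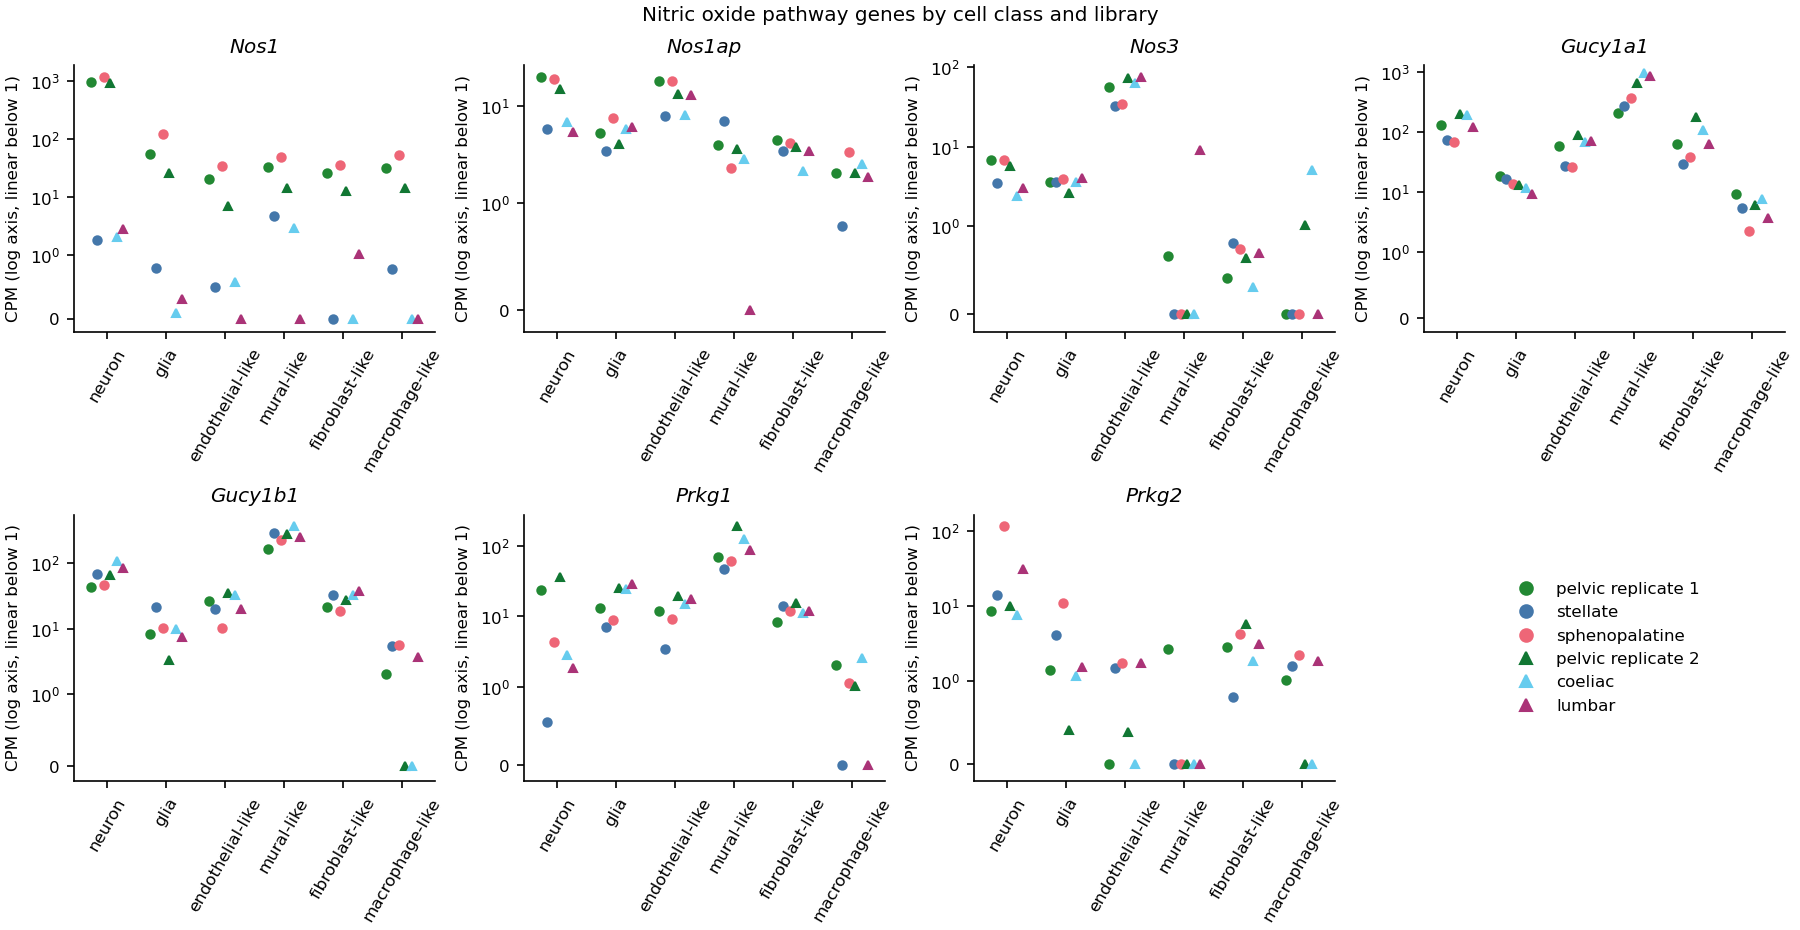
Level of the 7 genes (vertical axes, CPM on log axes that are linear below 1) in 6 cell classes (horizontal axes), 1 point per library, circles for round 1 and triangles for round 2. *Gucy1a1*, *Gucy1b1* and *Prkg1* are highest in mural-like cells, *Nos3* in endothelial-like cells, and *Nos1* in the classes outside neurons follows the library.

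Neurons also expressed both cyclase subunits, in every ganglion. *Gucy1a1* was at 69.7 CPM in the sphenopalatine, 74.4 CPM in the stellate, 123 CPM in the lumbar, 131 CPM in pelvic_1, 190 CPM in the coeliac and 203 CPM in pelvic_2. *Gucy1b1* was at 43.5 CPM in pelvic_1, 46.7 CPM in the sphenopalatine, 67.1 CPM in pelvic_2, 67.9 CPM in the stellate, 83.8 CPM in the lumbar and 107 CPM in the coeliac. Neighbours in these orders such as pelvic_2 and stellate for *Gucy1b1* overlapped in their intervals. A *Gucy1a1* UMI was present in 64.9% to 96.0% of neurons per library.

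Glia held little of either, 9.16 to 18.3 CPM of *Gucy1a1* and 3.27 to 21.8 CPM of *Gucy1b1*, and neurons exceeded them by 3.31 ± 0.30 (adjusted p = 4.63e-11, edgeR) and 3.00 ± 0.28 (adjusted p = 8.10e-11), in 6 of 6 libraries each. Neurons thus carried the transcripts of the receptor whether or not their ganglion held *Nos1*. Pelvic and sympathetic neurons differed in the 2 subunits by 0.56 ± 0.19 for *Gucy1a1*, which did not pass the threshold (adjusted p = 0.0908), and by -0.57 ± 0.15 for *Gucy1b1* (adjusted p = 0.0380). The *Gucy1b1* difference was lower in pelvic neurons in each pairing within a round (0.624-fold to 0.801-fold) but lost the threshold under 5 of 11 alternatives, among them leaving out either pelvic library or the stellate. The *Gucy1a1* difference passed under 3 of 11, with DESeq2 (adjusted p = 0.0368), without a filter (adjusted p = 0.00681) and without the coeliac library (0.75, adjusted p = 0.00193). Each fit of this comparison with a library left out had few residual degrees of freedom, so a threshold gained or lost there is a weak guide.

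Within the pelvic ganglion, P2-like neurons were the richest in *Gucy1a1* of the named clusters in both libraries, at 177 and 296 CPM, and P4-like neurons the poorest, at 70.8 and 116 CPM. P1-like neurons held 100 and 186 CPM and P3-like neurons 134 and 236 CPM. *Gucy1b1* was highest in the noradrenergic P3-like neurons, at 78.0 and 151 CPM, and between 26.1 and 62.8 CPM in the other clusters. In the sphenopalatine *Gucy1a1* ranged from 18.8 CPM in the *Penk*-led to 128 CPM in the *Pcp4l1*-led cluster. In the stellate it ran from 14.5 CPM in 525 neurons led by *Cldn11* to 119 CPM in 549 led by *Fst*, in the lumbar chain from 22.3 CPM in 233 neurons led by *Mgat4c* to 251 CPM in 121 led by *Cntn5*, and in the coeliac from 39.9 CPM in the *Sytl4*-led to 277 CPM in the *Itga1*-led cluster. As folds, the cluster extremes within each sympathetic ganglion lay farther apart than the whole-ganglion levels, 74.4 CPM in the stellate to 190 CPM in the coeliac. This does not rank cluster against ganglion, since clusters were drawn from the same cells and whole-ganglion levels average over them. Those levels also differ in round, and the coeliac *Sytl4*-led cluster held fibroblast markers at 1870 CPM in all.

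*Prkg1* (ENSMUSG00000052920, GRCm38 chr19:30564489-31765033, minus strand), the kinase through which cyclic GMP relaxes smooth muscle, was highest in mural-like cells as well. It reached 47.1 CPM in the stellate, 59.8 CPM in the sphenopalatine, 70.1 CPM in pelvic_1, 85.7 CPM in the lumbar, 123 CPM in the coeliac and 187 CPM in pelvic_2. Mural-like cells exceeded endothelial-like cells by 2.91 ± 0.58 (adjusted p = 1.68e-04, edgeR) and neurons by 3.31 ± 0.54 (adjusted p = 3.15e-06), in 6 of 6 libraries each. The margin over neurons was 2.94-fold and 5.22-fold in the pelvic libraries and 14.0-fold to 85.0-fold in the others.

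Among neurons *Prkg1* was highest in the pelvic ganglion. It stood at 23.9 CPM in pelvic_1 and 35.8 CPM in pelvic_2, against 4.26 CPM in the sphenopalatine, 2.78 CPM in the coeliac, 1.88 CPM in the lumbar and 0.554 CPM in the stellate. Pelvic neurons exceeded sympathetic ones by 4.57 ± 0.31 (adjusted p = 2.20e-04, edgeR), 43.1-fold within round 1 and 12.9-fold and 19.1-fold within round 2. The sphenopalatine, which held more *Nos1* than the pelvic ganglion, lay between the pelvic and the sympathetic ganglia in *Prkg1*, with an interval (3.81 to 4.75) that overlapped none of theirs. A *Prkg1* UMI was present in 51.1% and 76.4% of pelvic neurons and in 1.43% to 13.5% of neurons elsewhere. At 4000 UMIs per cell the shares were 7.50% and 12.5% against 0.333% to 2.59%.

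All pelvic clusters carried *Prkg1*, those poor in *Nos1* included. P4-like neurons held 35.8 and 39.5 CPM, P2-like neurons 29.3 and 36.3 CPM, P1-like neurons 17.3 and 33.9 CPM, the *Pcp4l1*-led cluster 29.4 and 45.9 CPM and P3-like neurons 10.5 and 24.1 CPM. Macrophage-like cells of the same libraries held 2.04 and 1.02 CPM. In the sympathetic ganglia the *Sytl4*-led clusters held 27.5 CPM in the coeliac and 18.8 CPM in the lumbar chain, apart from the other clusters there, which held at most 4.14 CPM. In the stellate the *Sytl4*-led cluster held 6.74 CPM and the *Vip*-led one 8.08 CPM. The coeliac and lumbar *Sytl4*-led clusters were also those with the most *Nos1* in their ganglia, and the coeliac one, of 37 neurons, was led by collagen genes beside *Sytl4*.

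The neuron-glia difference of *Prkg1* went in opposite directions in different ganglia. Glia held 13.1 CPM in pelvic_1, 25.4 CPM in pelvic_2, 8.83 CPM in the sphenopalatine, 6.93 CPM in the stellate, 24.4 CPM in the coeliac and 28.7 CPM in the lumbar library. Glial levels were thus higher in all libraries of round 2 than in those of round 1. Pelvic neurons were 1.82-fold and 1.41-fold above pelvic glia, whereas neurons of the other ganglia were at 0.0654 to 0.482 of the level of their glia. The test of the difference between pelvic and sympathetic libraries gave 4.26 ± 0.31 on the log2 scale (adjusted p = 0.0108, edgeR), and 1 of the 7 genes, *Prkg1*, passed in it, where 0.791% of all 15433 genes tested did. This test was added after the values had been seen. Over all ganglia neurons and glia did not differ by the test, at -0.90 ± 0.50 (adjusted p = 0.108), and glia exceeded neurons when pelvic_1 (-1.58, adjusted p = 0.00834) or pelvic_2 (-1.55, adjusted p = 0.0156) was left out.

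*Prkg2* (ENSMUSG00000029334, GRCm38 chr5:98929773-99037351, minus strand), the membrane-bound kinase known from secretory epithelia and brain, was higher in neurons than in glia, mural-like and endothelial-like cells. In neurons it was at 115 CPM in the sphenopalatine, 31.5 CPM in the lumbar, 14.0 CPM in the stellate, 9.86 CPM in pelvic_2, 8.46 CPM in pelvic_1 and 7.56 CPM in the coeliac. The coeliac and both pelvic libraries overlapped in their intervals, and the 3 libraries above them did not. Mural-like cells had no *Prkg2* UMI in 5 of 6 libraries, endothelial-like cells held at most 1.73 CPM and glia 0.409 to 4.09 CPM, apart from 11.1 CPM in the sphenopalatine, the library with the highest neuronal level, where macrophage-like cells held 2.23 CPM. Chromaffin-like cells, found in 3 libraries and not part of the fit, held 37.1 CPM in pelvic_1 (interval 26.5 to 50.5), 28.6 CPM in pelvic_2 (19.8 to 40.0) and 12.1 CPM in the coeliac (5.55 to 23.0). The pelvic values lay above the neurons of their libraries, and the coeliac interval overlapped that of its neurons. Neurons exceeded glia by 3.27 ± 0.41 on the log2 scale (adjusted p = 3.04e-08, edgeR). The log2 difference from neurons was -4.44 ± 0.79 in mural-like cells (adjusted p = 1.29e-05) and -5.05 ± 0.62 in endothelial-like cells (adjusted p = 1.49e-08), values that depend on the prior count because of the zeros. Pelvic and sympathetic neurons did not differ by the test, at -0.91 ± 0.53 (adjusted p = 0.295), and the sympathetic libraries lay on both sides of the pelvic ones. Without the coeliac library the difference was -1.23 and passed (adjusted p = 7.72e-08), as it did without a filter on low counts (-0.92, adjusted p = 2.63e-05). The fit without the coeliac had few residual degrees of freedom, like each fit of this comparison with a library left out, so its p-value is a weak guide. The stellate and lumbar levels left in it were 14.0 and 31.5 CPM.

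Its sphenopalatine level came from part of the clusters. *Tac2*-led neurons held 279 CPM, *Edil3*-led 261 CPM and *Ddc*-led 206 CPM, and 95.7% to 99.4% of the neurons of these 3 clusters had a *Prkg2* UMI. *Npy*-led neurons held 8.22 CPM, *Calcb*-led 14.6 CPM and the cluster of 79 neurons lowest in *Nos1* 15.1 CPM. *Prkg2* was among the leading genes of the *Edil3*-led and *Tac2*-led clusters, but it was left out of the genes used to draw them. The clusters were drawn from the same cells of 1 library, so this is a description. The *Pcp4l1*-led neurons, rich in *Nos1*, held 35.0 CPM.

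**Figure D4:**
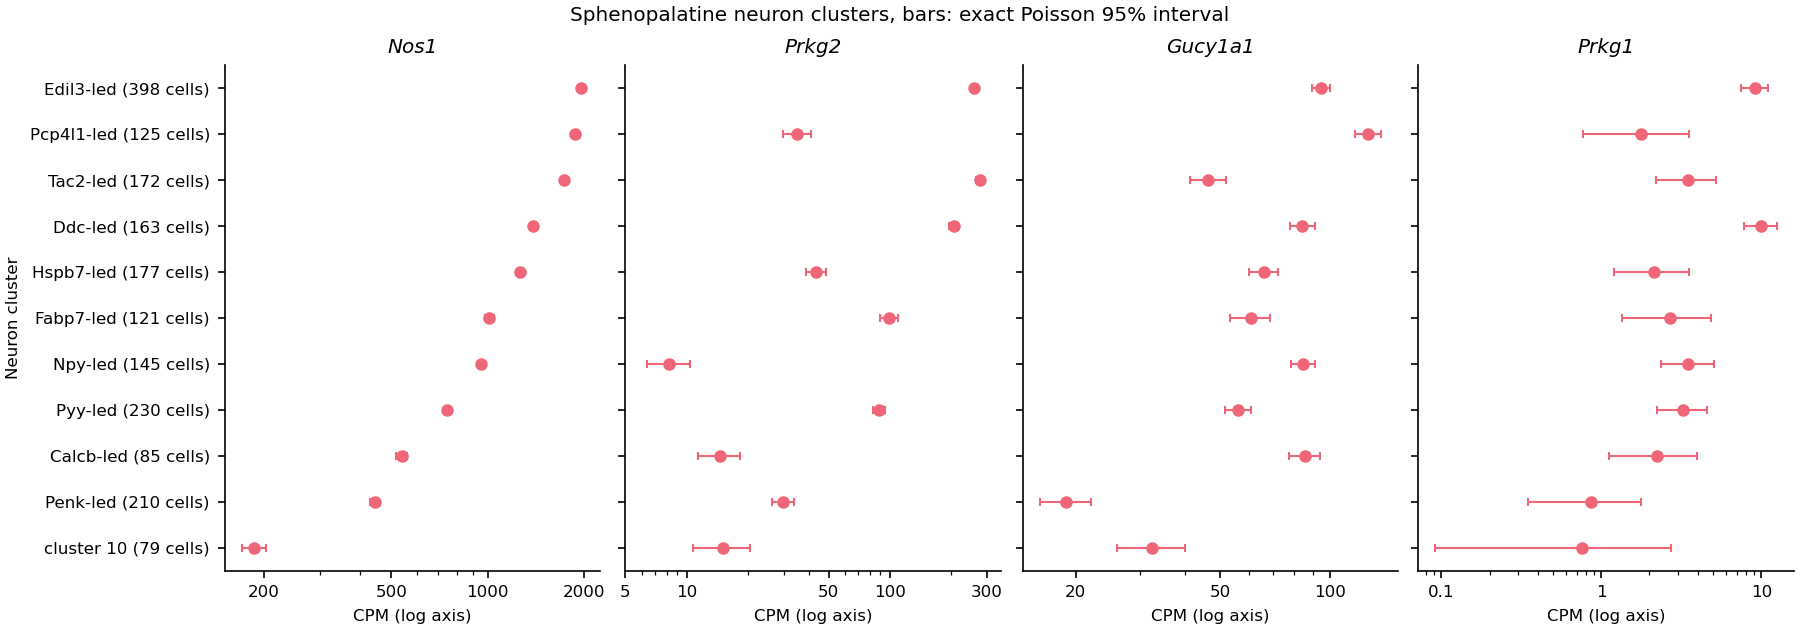
*Nos1*, *Prkg2*, *Gucy1a1* and *Prkg1* (horizontal axes, CPM on log axes) in the 11 neuron clusters of the sphenopalatine library (vertical axis, ordered by *Nos1*, named by leading gene or, for 1 of them, by number, with the number of cells), with exact Poisson 95% intervals as bars. *Nos1* spans 187 to 1958 CPM and *Prkg2* 8.22 to 279 CPM, and their orders differ.

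*Prkg2* was uneven between clusters of the other ganglia as well. In the stellate the 28 cholinergic-like neurons led by *Adgrg6* held 97.2 CPM, with a UMI in 92.9% of them, and the next cluster, led by *Fst*, 27.7 CPM. In the lumbar chain the *Fst*-led neurons held 78.7 CPM and the *Cntn5*-led 47.4 CPM, against at most 19.9 CPM in the other clusters. Among pelvic clusters P1-like neurons held 19.2 and 19.2 CPM and P3-like neurons 11.9 and 8.21 CPM, whereas P2-like neurons held 0.986 and 1.08 CPM and P4-like neurons 2.11 and 1.24 CPM, near the 1.02 and 0 CPM of macrophage-like cells.

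P1-like to P4-like clusters were drawn from the same cells. The noradrenergic P3-like cluster was therefore compared with P1-like, P2-like and P4-like as a description, without p-values. The study calls its P1, P2 and P4 clusters cholinergic. The *Pcp4l1*-led cluster, highest in *Nos1*, was left out of this comparison. Its listed cholinergic markers summed to 3242 and 4694 CPM and its noradrenergic ones to 624 and 295 CPM. Without the exclusion by glial markers no such cluster formed, and *Pcp4l1* was among the leading genes of P1-like neurons. The fitted log2 differences with the library as a term were -3.56 ± 0.31 for *Nos1*, -1.32 ± 0.18 for *Nos1ap*, -0.60 ± 0.28 for *Nos3*, 0.30 ± 0.10 for *Gucy1a1*, 1.34 ± 0.11 for *Gucy1b1*, -0.96 ± 0.18 for *Prkg1* and 1.64 ± 0.25 for *Prkg2*. Their ± comes from the test statistic of that fit, so it is given as a description too and not read as a test. P4-like neurons, named after a cluster that the study calls cholinergic, also held little *Nos1*. The *Nos1* value is therefore not one of noradrenergic against all cholinergic neurons. The fit held 13213 genes, with a median log2 difference of 0.002 over all of them.

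In the comparisons between classes, fitted on 6 classes of each library, all 7 genes were among the 13438 that passed the filter on low counts. Between neurons and glia 5 of 7 passed the threshold, all higher in neurons, where 73.9% of all genes passed and 40.4% were higher. Between mural-like and endothelial-like cells 3 were higher and 2 lower in mural-like cells, where 39.8% of all genes passed, 18.7% higher and 21% lower. Between mural-like cells and neurons 3 were higher and 4 lower in mural-like cells, where 66.2% passed, 27.8% higher and 38.4% lower. Between endothelial-like cells and neurons 1 was higher and 4 lower in endothelial-like cells, where 75.6% passed, 34.8% higher and 40.7% lower. All 7 also passed the filter in the pelvic and sympathetic comparison. These counts describe 7 chosen genes, and nothing particular to them is read from the counts. *Nos1ap* and *Prkg1* did not differ between endothelial-like cells and neurons by the test, at 0.05 ± 0.23 (adjusted p = 0.859, edgeR) and 0.40 ± 0.55 (adjusted p = 0.510). *Nos1* differed between mural-like and endothelial-like cells by 0.75 ± 0.50, which did not pass (adjusted p = 0.245). *Nos1* fell by 4.96 from neurons to mural-like cells in the fit (adjusted p = 3.43e-10), carried by the sphenopalatine and both pelvic libraries, since mural-like cells held 2 *Nos1* UMIs in the stellate, 1 in the coeliac and 0 in the lumbar library. The classes were drawn from the same cells as the values, with the 7 genes left out of the genes used for clustering.

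**Figure D5:**
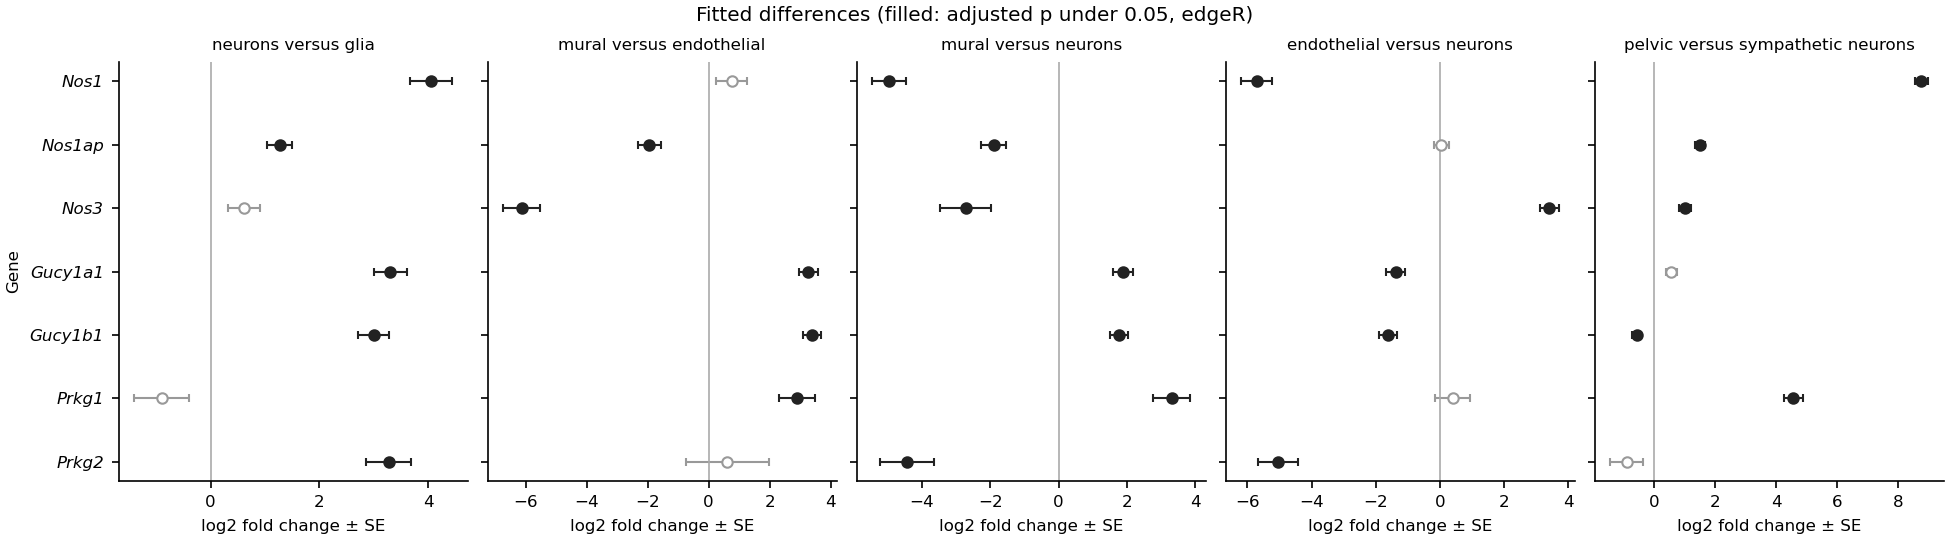
Fitted log2 differences (horizontal axes) of the 7 genes (vertical axis) in 5 comparisons, with approximate standard errors derived from the test's F statistic. Points are filled where the adjusted p was under 0.05 in edgeR's quasi-likelihood test. *Gucy1a1*, *Gucy1b1* and *Prkg1* are higher in mural-like than in endothelial-like cells, *Nos3* is lower there, and *Nos1* has the largest pelvic minus sympathetic difference of the 7, at 8.76.

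A further 52 genes of the pathway were listed by role: synthase partners, tetrahydrobiopterin and arginine enzymes, other cyclases, phosphodiesterases and targets of cyclic GMP. Between pelvic and sympathetic neurons 48 were tested, 7 were higher and 13 lower in pelvic neurons, where 10.3% of all genes were higher and 8.21% lower, with a median log2 difference of -0.06 against -0.02 over all genes. The largest gain was in *Ass1*, which regenerates arginine for the synthases, at 652 and 754 CPM in the pelvic libraries against 37.3, 17.0 and 26.2 CPM in the stellate, coeliac and lumbar ones (4.69 ± 0.31, adjusted p = 1.90e-04, edgeR), and the sphenopalatine held 1253 CPM. *Npr3*, a natriuretic peptide clearance receptor (3.95 ± 0.33), *Pde5a*, which degrades cyclic GMP (3.57 ± 0.49), and *Mrvi1*, a substrate of the type I kinase (1.93 ± 0.52), were also higher, each at most 7.11 CPM in neurons of these 5 libraries. Lower in pelvic neurons were *Arg1*, an arginase that consumes arginine, at 2.26 and 3.12 CPM against 18.8 to 59.9 CPM (-3.96 ± 0.55, adjusted p = 0.00332), the channel gene *Cnga3* (-3.43 ± 0.92), *Pde11a* (-3.07 ± 0.61) and the cyclase gene *Gucy1b2* (-2.83 ± 0.79), the last 3 at most 4.28 CPM in these 5 libraries.

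*Gch1* and *Ass1* differed between the pelvic clusters, along different lines. *Gch1*, the rate-limiting enzyme of tetrahydrobiopterin synthesis, which tyrosine hydroxylase needs as well, was at 297 and 350 CPM in P3-like neurons and at 16.1 to 36.2 CPM in P1-like, P2-like and P4-like neurons. *Ass1* was at 43.9 and 45.6 CPM in P3-like and 75.4 and 52.2 CPM in P4-like neurons, and at 630 to 1111 CPM in P1-like and P2-like neurons, the split that *Nos1* showed. *Pde3a*, *Gch1*, *Arg1* and *Gchfr* had the largest gains in P3-like neurons (3.84 ± 0.21, 3.54 ± 0.11, 2.64 ± 0.40 and 2.42 ± 0.42), and *Pde5a*, *Ass1*, *Pde1a* and *Npr3* the largest losses (-3.83 ± 0.52, -3.05 ± 0.14, -2.47 ± 0.35 and -2.45 ± 0.65). The 41 pathway genes fitted there had a median log2 difference of -0.078, against 0.002 over all genes, again as a description. The 8 arginine genes fitted had a median of -0.159.

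Between mural-like and endothelial-like cells 44 were tested, and 20 were higher and 11 lower in mural-like cells, where 18.7% of all genes were higher and 21.0% lower (median 0.41, against -0.02 over all genes). *Trpc6*, a cation channel of smooth muscle (3.88 ± 0.54), *Pde1a* (3.82 ± 0.42), *Mrvi1* (3.16 ± 0.35) and *Gucy1a2*, which encodes the alpha-2 cyclase subunit (3.13 ± 0.36), were the largest gains. *Gucy1a2* stood at 7.06 to 50.0 CPM in mural-like and 0.495 to 5.19 CPM in endothelial-like cells. The largest losses were in *Gchfr*, the feedback regulator of *Gch1* (-6.24 ± 0.84), the cyclic nucleotide exporter gene *Abcc4* (-5.95 ± 0.80), the natriuretic peptide receptor gene *Npr1* (-5.83 ± 0.72) and *Pde2a* (-3.82 ± 0.39), with mural-like cells at 0 UMIs of *Gchfr* and of *Abcc4* in 5 of 6 libraries each. *Npr1* was at 31.2 to 72.3 CPM in endothelial-like cells and *Pde2a* at 127 to 146 CPM.

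Of the 11 synthase partners, 5 were higher and 5 lower in mural-like cells than in neurons, and 4 were higher and 4 lower in endothelial-like cells. *Nostrin*, which traffics *Nos3*, and *Cav1*, the caveolar protein that binds it, were higher in mural-like cells than in neurons by 8.63 ± 0.56 and 6.98 ± 0.39 and in endothelial-like cells by 7.35 ± 0.53 and 8.52 ± 0.41. *Mrvi1* (8.16 ± 0.40) and the arginine transporter gene *Slc7a2* (5.82 ± 0.48) were the other large gains in mural-like cells. *Npr1* (7.37 ± 0.47) and *Mrvi1* (5.00 ± 0.39) were those in endothelial-like cells. *Dlg2*, a scaffold that holds *Nos1* at synapses, was lower in mural-like and endothelial-like cells by -5.13 ± 0.48 and -5.34 ± 0.38. *Abcc4* (-5.13 ± 0.84), *Gch1* (-4.01 ± 0.55) and *Ass1* (-3.94 ± 0.56) were the other large losses in mural-like cells, and *Kcnma1*, a potassium channel opened downstream of cyclic GMP (-4.98 ± 0.39), *Arg1* (-4.44 ± 1.01) and *Ass1* (-2.93 ± 0.49) in endothelial-like cells. In all, 17 of 44 were higher and 21 lower in mural-like cells than in neurons, and 16 and 21 in endothelial-like cells. Of all genes, 27.8% were higher and 38.4% lower in mural-like cells and 34.8% and 40.7% in endothelial-like cells. The medians were -0.12 and -0.13, against -0.24 and -0.12 over all genes.

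Against glia, neurons were higher in 29 of 44 pathway genes and lower in 10, where 40.4% of all genes were higher and 33.5% lower, with a median of 1.08 against 0.11 over all genes. *Arg1* (3.94 ± 0.75), *Dlg2* (3.85 ± 0.29), *Ass1* (3.75 ± 0.44) and *Gch1* (3.63 ± 0.42) led the higher ones. Glia were richer in *Npr3* (-6.35 ± 0.50), *Slc7a2* (-4.67 ± 0.45) and *Cav1* (-2.03 ± 0.33). Glial *Npr3* was at 22.4 to 162 CPM, while neurons held at most 5.55 CPM. The inducible synthase *Nos2* passed no filter and was at 2.86 to 12.96 CPM in endothelial-like cells, at 0 UMIs in mural-like cells, and at most 0.124 CPM in neurons and 0.514 CPM in glia. In the test of the neuron-glia difference between pelvic and sympathetic libraries 1 of 47 pathway genes passed, where 0.791% of all genes did. It was *Npr3*, at 3.37 ± 0.30 (adjusted p = 0.0140, edgeR).

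The genes most like each of the 7 were sought by Pearson correlation of log2(CPM + 1), as a description. Across 16 neuron groups (4 ganglia and 12 pelvic cluster sums, which share libraries), *Nos1* was followed most closely among 10366 genes by *Ass1* (r = 0.967), the serotonin receptor gene *Htr3a* (0.959) and the transcription factor gene *Hes1* (0.952). *Prkg1* was followed by *Cachd1* (0.937) and the *Hox* genes *Hoxd9* (0.930) and *Hoxb3* (0.917), *Gucy1a1* by *Gla* (0.918), *Nrip1* and *Asap1* (both 0.910), *Prkg2* by *Gm19345* (0.908), *Tunar* (0.884) and *Tmem108* (0.876), and *Nos1ap* by *Cry2* (0.911), *Elac1* (0.897) and *Tmem26* (0.895). Between *Gucy1a1* and *Gucy1b1* r was 0.350 over these neuron groups. Across 36 class sums (6 classes in 6 libraries) it was 0.913, and the only genes of 13420 above it for *Gucy1a1* were *Mark1* (0.932) and *Pde3a* (0.930).

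*Gucy1b1* was followed across these sums by *Pde3a* (0.948), *Gucy1a1* and the tropomyosin gene *Tpm1* (0.903), *Nos3* by the endothelial phosphatase gene *Ptprb* (0.926), *Stap2* (0.911) and *Acacb* (0.904), and *Prkg1* by *Gm15270* (0.895), *Pde5a* (0.875) and *Gpc6* (0.869). *Prkg1* and *Prkg2* had r = -0.646 over the neuron groups, and *Nos1* and *Prkg2* -0.112.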

How the data were processed

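Droplet single-cell RNA-seq of 6 libraries from 5 ganglia was used. The authors deposited UMI counts per gene and droplet, made with Cell Ranger 6.0.1 on mm10 according to the submitters' processing notes; how the counting treated strand is not given in the sources used here. Cells with more than 1500 and fewer than 11000 genes and under 15% mitochondrial counts were kept. After scaling with sctransform 0.4.2 (R 4.3.3), cells with a mean neuronal marker value above 3 (the study's threshold) and a glial value below 1.15 were taken as neurons; 1312 cells lay within 0.25 of the neuronal and 571 within 0.25 of the glial threshold. Louvain clusters (igraph 0.11.9, resolution 0.3 for pelvic neurons, 0.5 for other neurons, 1 for other cells) were called X-like from at least 3 listed markers, and may differ from the study's clusters, as may anything that rests on them. The nitric oxide synthesis and signalling genes followed here were left out of the genes used for clustering. Clusters and values still came from the same cells. No doublet caller was used in the main values; an alternative marked 4.78% of cells.

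Counts were summed per library and class or cluster of at least 10 cells and tested with edgeR 4.0.16 (quasi-likelihood test, TMM scaling, filterByExpr, Benjamini-Hochberg over all genes tested, threshold 0.05), with the library as a term, or the round for pelvic against sympathetic neurons, where the 3 sympathetic ganglia stood as replicates. The number of pups per library is not given in the sources used here. A group with 0 UMIs was given a limit of 3 UMIs. Shares of cells were also computed after thinning to 4000 UMIs (neurons) or 2000 UMIs (all classes), and intervals cover counting error only. Positions are from the GENCODE annotation of GRCm38, promoter windows from RefSeq, matched by symbol for 5 of the 7 genes (8 windows). Scripts ran in Python 3.11.15 with numpy 2.4.6 and scipy 1.17.1 and were tested on simulated data.

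The 7 genes, the marker lists and the pathway list of 52 were chosen with earlier results of these data known. Named were the 7 genes in every group; of the pathway list, the count in each direction and up to 4 called genes with the largest change each way; the 3 genes most correlated with each of the 7; and *Vip*, *Chat* and *Th* for co-detection. A few gene names that these rules would give, the Cre driver's included, are not reported here. Other genes appear as labels of clusters, as examples of level, or were chosen after their values were seen. Alternatives were RLE factors, DESeq2 1.42.0, no filter, no library or round term, each library left out, doublets removed, other neuron selections and cluster settings. The cluster settings were resolution 0.6 and no correction for the batch of the pelvic libraries. In both no cluster was named P1-like, so P3-like neurons were compared with P2-like and P4-like ones only. Without batch correction the P2-like cluster held 93 cells, all of pelvic_2. Round-only fits, within-round values and the test of the neuron-glia difference between pelvic and sympathetic libraries were added after seeing the data.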

Additional observations from a re-analysis of the deposited data

Results flagged for a closer look

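Over 42 sets of 6 libraries (7 genes in 6 classes), 4 had a library farther from the others than Dixon's 95% limit, where chance alone flags about 1 in 20 sets. *Prkg2* in sphenopalatine neurons stood at 115 CPM, with a gap to the nearest library of 0.778 of the whole range. *Prkg2* in sphenopalatine glia stood at 11.1 CPM (0.657 of the range), in the library with the highest neuronal level. *Prkg2* in mural-like cells of pelvic_1 stood at 2.65 CPM, from 4 UMIs, where the other 5 libraries had none. With zeros in all the others the gap fills the whole range, so this flag was fixed by the zeros. A single UMI in coeliac mural-like cells would be 2.87 CPM, so pelvic_1 is not placed above the others. *Nos3* in glia of pelvic_2 was the lowest, at 2.59 CPM (0.676 of the range).

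The neuron minus glia difference of *Prkg1* differed between pelvic and sympathetic libraries by 4.26 on the log2 scale (adjusted p = 0.0108, edgeR's quasi-likelihood test with Benjamini-Hochberg adjustment), being above 0 in both pelvic and below 0 in all 3 sympathetic libraries. In the sphenopalatine, which was in neither group, it was -1.05.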

How the results depend on the processing

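Of the single-gene log2 differences recomputed under the alternatives, 502 were unchanged, 14 gained the threshold, 15 lost it, 2 moved and 6 changed sign. None of those 6 had passed. Unchanged means the same direction and side of the threshold. P3-like fits without a pelvic library gave no p-value and so have no such side. They counted as unchanged or moved by their distance from the main value, set against its standard error. Both that moved were of *Prkg1* in the P3-like comparison. The sign changes were those of *Prkg2* between mural-like and endothelial-like cells (from -6.53 without pelvic replicate 1 to 1.18 without the stellate, and -5.28 with round 2 only), of *Nos1ap* between endothelial-like cells and neurons (-0.094 without a filter, -0.031 without the library term, and from -0.013 without the lumbar library to 0.230 without pelvic replicate 2), and of *Prkg1* in that comparison (-0.022 without the library term). Counts of genes called moved by over 1.5 times in 3 comparisons: to 3113 between mural-like and endothelial-like cells with round 2 only (5342 in all libraries), to 1077 between pelvic and sympathetic neurons without the round term (2906 with it), and to 1012 for the P3-like cluster without the library term (3225 with it). The P3-like calls are a description, since its clusters were drawn from the same cells. Leaving out libraries moved the pelvic and sympathetic count between 651 and 4060, with 651 without pelvic replicate 2, 750 without the stellate and 851 without pelvic replicate 1. *Nos1* (8.56 to 9.02) and *Prkg1* (4.04 to 5.37) passed in that comparison under each of its alternatives. The median of all genes between mural-like cells and neurons was -0.24 with TMM and -0.11 with RLE factors.

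Shares of neurons with *Nos1* moved with the count asked for. With at least 2 UMIs they were 82.5% in pelvic_1, 85.0% in pelvic_2, 97.4% in the sphenopalatine, 0.477% in the stellate, 2.53% in the coeliac and 4.19% in the lumbar library, 21.4% and 33.3% in P3-like and 24.1% and 22.6% in P4-like neurons (pelvic_1, then pelvic_2). At 4000 UMIs per cell they were 74.5%, 76.7%, 89.1%, 0.740%, 0.862% and 1.80% in the same order of libraries, 92.2% and 89.5% in P1-like, 91.4% and 95.4% in P2-like, 6.87% and 3.03% in P3-like and 12.3% and 3.23% in P4-like neurons. Neurons selected on log counts gave 86.2% in pelvic_1. Leaving out a pelvic library left the P3-like comparison with no residual degrees of freedom, so it gave values only. For pelvic against sympathetic neurons the round was a term. No paired analysis was possible because the ganglia, as opposed to the classes, shared fewer than 2 replicate numbers. The comparisons of classes were made within libraries, with the library as a term. Mural-like sums of 26 to 262 cells limit what could be detected there.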
